A study of Mus musculus with 18 samples.

Results

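The survival proteins and the effectors of the Bcl2 family were followed in NMuMG cells after treatment with halofuginone (HF). Members were every probe whose gene symbol in the platform annotation was Bcl2, Bcl2l1, Bcl2l2, Bcl2l10, Mcl1, Bax, Bak1 or Bok. This gave 13 of 21973 probes and 7 of the 8 genes, out of 16675 genes in all. Bcl2 had 4 probes, Bcl2l1, Bcl2l2 and Bok had 2 each, and Bcl2l10, Mcl1 and Bak1 had 1 each. No probe carried the symbol Bax, so Bax has no value here. NMuMG is an epithelial cell line from normal mouse mammary gland. Cells were freshly plated in medium with serum and insulin, and were given 10 nM HF or 10 nM MAZ1310, an inactive HF analog used as the control, for 8 hr. Both compounds were diluted in acidified DMSO, and no untreated or DMSO culture is among the arrays. There were 3 cultures per treatment, each hybridized to 3 technical arrays, and all values below are log2 intensities averaged over the technical arrays of a culture unless arrays are named.

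Bcl2 family proteins decide whether the outer mitochondrial membrane is opened during apoptosis. Bax, Bak1 and Bok are the effectors that can form pores in this membrane, while Bcl2, Bcl2l1 (Bcl-xL), Bcl2l2 (Bcl-w) and Mcl1 bind and restrain effectors and the BH3-only proteins that trigger them. In mammary epithelium the family is known for its part in cell loss when the gland regresses after lactation. Much of its control is on the protein, which arrays do not measure. In bulk RNA, fewer cells expressing a gene and less RNA per cell cannot be told apart.

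Of the epithelial markers, the keratins Krt8 and Krt18 had mean log2 intensities of 15.97 each, close to the scanner's upper limit, while the epithelial adhesion gene Epcam (listed as Tacstd1) was at 6.003. Of the markers of other cell types, 8 fibroblast genes lay between 5.77 and 6.77, 6 adipocyte genes between 5.83 and 6.95 and 7 blood and endothelial genes between 5.89 and 9.06, and none of these or of the 8 epithelial markers passed the test. The summed log2 level of the 8 epithelial markers was 97.10 to 98.52 in HF cultures and 95.71 to 96.54 in MAZ1310 cultures, and its part in the results was not tested. Mmp13, a collagenase that the study used as a readout of HF activity, was higher by 1.57 ± 0.17 (SE) on the log2 scale (limma adjusted p = 0.00873), a call that ended without HF replicate 2 or MAZ1310 replicate 2. As a reference for dim probes, the 703 olfactory receptor probes, whose genes are not expected in this epithelium, had a median of 6.43 and a 95th percentile of 8.72. No detection call is given with the values.

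The DNA just before the annotated gene start is shown for the member that rose (Bcl2l2) and for both measured effectors (Bak1 and Bok), from the RefSeq promoter table of GRCm38.p6, read 5′ to 3′ on the gene's strand. The stretches are chr14:54883175-54883365 on the plus strand for Bcl2l2, chr17:27028628-27028877 on the minus strand for Bak1 and chr1:93685325-93685574 on the plus strand for Bok. The Bcl2l2 stretch has 191 bases and the others 250, since the table's window for Bcl2l2 runs past the annotated gene start and only the bases before that start are shown. Capitals mark GC boxes, the letters GGGCGG on either strand.
Bcl2l2: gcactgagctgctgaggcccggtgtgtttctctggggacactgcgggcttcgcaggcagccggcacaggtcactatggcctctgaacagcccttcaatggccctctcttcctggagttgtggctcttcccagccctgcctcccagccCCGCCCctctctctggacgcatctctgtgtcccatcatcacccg
Bak1: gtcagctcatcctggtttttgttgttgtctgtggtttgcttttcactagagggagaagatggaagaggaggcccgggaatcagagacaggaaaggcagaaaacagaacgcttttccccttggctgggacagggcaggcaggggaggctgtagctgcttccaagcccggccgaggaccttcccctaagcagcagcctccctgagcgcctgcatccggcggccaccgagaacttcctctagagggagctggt
Bok: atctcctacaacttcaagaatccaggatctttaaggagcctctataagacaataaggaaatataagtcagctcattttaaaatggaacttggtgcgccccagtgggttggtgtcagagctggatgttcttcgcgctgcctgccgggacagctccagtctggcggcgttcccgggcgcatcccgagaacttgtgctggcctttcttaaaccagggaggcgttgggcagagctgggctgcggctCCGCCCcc

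Promoter windows were found for 7 of the 8 members, with 9 windows in all, and Bcl2l10 had none in the table. The first 250 bases of each window were searched, which for Bcl2l2 include bases past the annotated gene start. Windows of the members not shown above were not compared with their gene starts. GGGCGG was present on either strand in 5 of the 9 windows, those of Bcl2, Bcl2l2, Mcl1, Bax and Bok, and in 32.7% of all 32851 windows of the table. The core of the amino acid response element, TGATGNAA, through which Atf4 acts on many stress genes, was present in 0 of the 9 windows and in 3.45% of all windows. The cAMP response element TGACGTCA was in 0 of 9 and in 1.55% of all, and CCAAT was in 0 of 9 and in 33.8% of all. Since only GGGCGG was found in the member windows, no match there overlapped one of another motif. A match describes letters only, and a missing match speaks only of these windows.

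Bcl2l2, which encodes the survival protein Bcl-w, was the 1 member that rose, and it rose on 1 of its 2 probes. On probe mMR026887 the MAZ1310 cultures read 8.78, 8.84 and 8.87 and the HF cultures 10.96, 10.22 and 10.43. The highest MAZ1310 culture was thus well below the lowest HF culture, and the single arrays did not overlap either, with 8.02 to 9.43 in MAZ1310 and 9.96 to 11.29 in HF. HF averaged 10.54 ± 0.38 and MAZ1310 8.83 ± 0.044 (SD, n = 3 cultures each). The level was 3.27-fold higher in HF, with a 95% confidence interval of 2.34 to 4.55 (log2 fold change 1.71, standard error 0.20, limma adjusted p = 0.0155 over all probes). Of all probes tested, 2.23% passed in either direction with 1.15% higher and 1.09% lower, and of the 13 member probes 1 passed as higher and 0 as lower. The call ended without HF replicate 2 (adjusted p = 0.0509), without MAZ1310 replicate 2 (0.0743) and without MAZ1310 replicate 3 (0.0589), while the log2 fold change stayed between 1.498 and 1.87 over the 6 left-out cultures.

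The other Bcl2l2 probe, mMC022477, read 6.84, 6.59 and 6.63 in MAZ1310 and 6.84, 6.64 and 6.65 in HF. These cultures overlapped almost fully. Its log2 fold change was 0.026 (95% confidence interval -0.31 to 0.36). Its mean of 6.70 over all cultures was above that of 61.7% of the olfactory receptor probes. Probe mMC022477 was thus not shown to be above background, and its interval sets no limit on the transcript. For mMR026887 the share was 98.6%, but that mean includes the HF cultures in which this probe was high. In MAZ1310 alone mMR026887 averaged 8.83, close to the 95th percentile of 8.72, with single arrays from 8.02 to 9.43. The size of its rise therefore rests on a control level near the dim reference. The log2 fold change of mMC022477 minus that of mMR026887 was -1.68 (standard error 0.19). The per-culture difference ran from -4.12 to -3.57 in HF and from -2.25 to -1.94 in MAZ1310, and its two-sided exact permutation test gave p = 0.1, the smallest that 3 cultures against 3 allow, and 0.3 after adjustment over the 9 pairs of probes compared. Where on the Bcl2l2 transcripts each probe lies is not given in the sources used here.

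**Figure D1:**
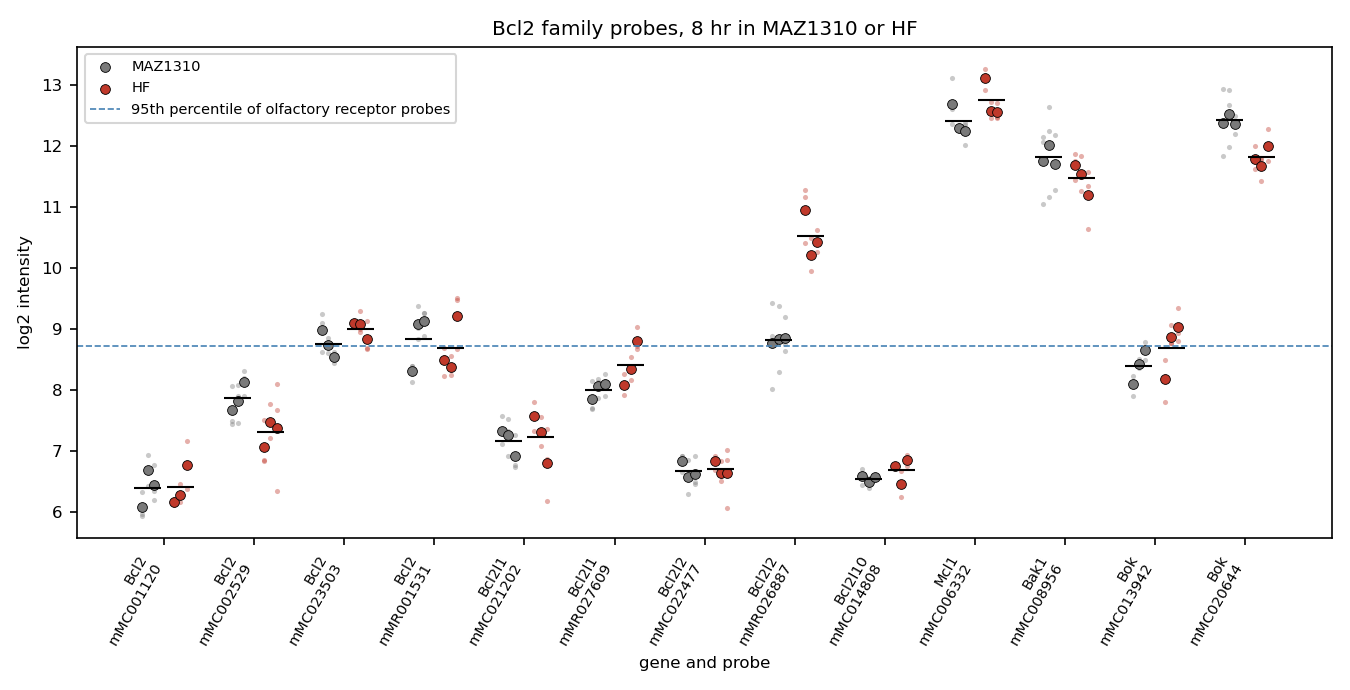
Log2 intensity (vertical axis) of each member probe (horizontal axis) in MAZ1310 (grey) and HF (red), with large points for cultures, small points for technical arrays, bars for group means and a dashed line at 8.72, the 95th percentile of olfactory receptor probes. Of the 13 probes, mMR026887 of Bcl2l2 shows the widest gap, from cultures at 8.78 to 8.87 in MAZ1310 to 10.22 to 10.96 in HF.

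By the median over its probes, Bcl2l2 read 7.81, 7.71 and 7.75 in MAZ1310 and 8.90, 8.43 and 8.54 in HF. Every HF culture was above every MAZ1310 culture. The median of 2 probes is their mean, so this gap and the change below rest on mMR026887 and are no separate result. The gene value was higher by 0.87 ± 0.16 (SE) on the log2 scale (limma adjusted p = 0.038), or 1.82-fold with a 95% confidence interval of 1.41 to 2.35, so that averaging in the dim probe gave a smaller change than the bright probe alone. Of the 7 measured genes 1 passed this test, as higher, and 6 did not, beside 3.02% of all genes in either direction and 1.45% as higher. The gene-level call ended whichever of the 6 cultures was left out (adjusted p from 0.0654 to 0.127), with log2 fold changes of 0.73 to 0.96.

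Mcl1, a short-lived survival protein that restrains Bak1, was measured by 1 bright probe. It read 12.70, 12.30 and 12.25 in MAZ1310 and 13.12, 12.58 and 12.55 in HF. MAZ1310 replicate 1 was above HF replicates 2 and 3, so the groups overlapped. Its log2 fold change was 0.33 (95% confidence interval -0.15 to 0.82, limma adjusted p = 0.547), or 1.26-fold with an interval of 0.898 to 1.77. In each group replicate 1 was the highest culture.

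Bcl2l1 encodes Bcl-xL and its shorter pro-apoptotic splice form Bcl-xS, and which form its probes read is not given. Probe mMR027609 read 7.85, 8.07 and 8.11 in MAZ1310 and 8.09, 8.35 and 8.82 in HF, where only HF replicate 1 fell within the MAZ1310 range. Probe mMC021202 read 7.33, 7.26 and 6.93 in MAZ1310 and 7.57, 7.32 and 6.81 in HF, with full overlap. Both probes had means under the 95th percentile of the olfactory receptor probes (8.21 and 7.20 against 8.72). Their log2 fold changes were 0.41 (95% confidence interval -0.077 to 0.90) and 0.057 (-0.47 to 0.59), and the per-culture difference between the probes gave p = 0.7 in the exact permutation test.

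Taken by the median of both probes, Bcl2l1 read 7.59, 7.67 and 7.52 in MAZ1310 and 7.83, 7.83 and 7.81 in HF. The groups no longer overlapped, although those of each single probe did. The 2 probes ran in opposite order over the HF cultures, which left the gene value with an SD of 0.013 there. The log2 fold change of 0.23 (95% confidence interval -0.046 to 0.51) did not pass (limma adjusted p = 0.416). Groups that do not overlap were seen for 3 of the 7 member genes, Bcl2l1, Bcl2l2 and Bak1, and for 21.0% of all genes. Bak1 was lower in HF without overlap, as were 9.85% of all genes.

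Bcl2, the founding survival protein of the family, had a log2 fold change of -0.24 by the median over its 4 probes (95% confidence interval -0.63 to 0.14, limma adjusted p = 0.593), and its probes went different ways. Probe mMC002529 read 7.67, 7.82 and 8.14 in MAZ1310 and 7.07, 7.49 and 7.38 in HF, with every HF culture below every MAZ1310 culture. Its log2 fold change of -0.57 (95% confidence interval -0.997 to -0.13, limma unadjusted p = 0.017) did not pass over all probes (adjusted p = 0.185). Probe mMC023503 read 8.99, 8.74 and 8.55 in MAZ1310 and 9.11, 9.09 and 8.84 in HF, a log2 fold change of 0.25 (95% confidence interval -0.15 to 0.64). Its groups overlapped, since HF replicate 3 was below MAZ1310 replicate 1.

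The remaining Bcl2 probes also overlapped between treatments. Probe mMR001531 had a log2 fold change of -0.15 (95% confidence interval -0.86 to 0.57), and its cultures spread from 8.31 to 9.14 in MAZ1310 and from 8.38 to 9.22 in HF. Probe mMC001120, at a mean of 6.41 that 48.5% of the olfactory receptor probes lay below, had 0.0043 (-0.52 to 0.53). Probe mMC002529 was also under the dim reference of 8.72, with a mean of 7.59. The widest gap between Bcl2 probes, that of mMC002529 minus mMC023503, was -0.81 (standard error 0.32, exact permutation p = 0.1, and 0.3 over the 9 pairs). The sign of the Bcl2 gene value therefore depended on the probe taken, and it was positive for the brightest probe and when the dimmest 0.25 of all probes were left out.

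Bcl2l10 (Diva or Boo), a family member known in mouse mainly from ovary and testis, read 6.60, 6.49 and 6.57 in MAZ1310 and 6.75, 6.47 and 6.86 in HF on its 1 probe. HF replicate 2 lay below all MAZ1310 cultures. The log2 fold change was 0.14 (95% confidence interval -0.20 to 0.48, limma adjusted p = 0.786). The mean of 6.62 was above that of 59.0% of the olfactory receptor probes, within the range of this dim reference.

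Among the effectors, Bak1 read 11.76, 12.02 and 11.71 in MAZ1310 and 11.70, 11.54 and 11.19 in HF. Bak1 sits in the outer mitochondrial membrane and is held there by Mcl1 and Bcl-xL until it is released. All HF cultures were below all MAZ1310 cultures, but HF replicate 1 was only just below MAZ1310 replicate 3, and single arrays overlapped (10.65 to 11.88 in HF and 11.05 to 12.64 in MAZ1310). Bak1 had a log2 fold change of -0.36 (95% confidence interval -0.76 to 0.053, limma adjusted p = 0.39), or 0.782-fold with an interval of 0.589 to 1.04.

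Bok, an effector that in mouse cells can act without Bax and Bak1, was measured by 2 probes that differed. The brighter probe, mMC020644, read 12.38, 12.53 and 12.37 in MAZ1310 and 11.79, 11.67 and 12.00 in HF. Every HF culture was below every MAZ1310 culture. Its log2 fold change was -0.60 (95% confidence interval -0.95 to -0.26, limma unadjusted p = 0.00409), a level 1.52-fold lower in HF, and it did not pass over all probes (adjusted p = 0.0877). Member probes with no overlap numbered 4 of 13, against 20.2% of all probes. Lower in HF without overlap were 3 of the 13 (Bcl2 mMC002529, Bak1 and Bok mMC020644), beside 9.07% of all probes. Higher without overlap was 1 of the 13 (Bcl2l2 mMR026887), beside 11.1% of all probes.

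The other Bok probe, mMC013942, read 8.10, 8.43 and 8.66 in MAZ1310 and 8.18, 8.88 and 9.03 in HF. Its mean of 8.55 was under the 95th percentile of the olfactory receptor probes (8.72). Its groups overlapped and its log2 fold change was 0.30 (95% confidence interval -0.30 to 0.91). The difference of mMC013942 minus mMC020644 was 0.91 (standard error 0.30, exact permutation p = 0.1, and 0.3 over the 9 pairs), without overlap between -3.61 to -2.80 in HF and -4.27 to -3.72 in MAZ1310. By the median over both probes Bok had a log2 fold change of -0.15 (95% confidence interval -0.56 to 0.26, limma adjusted p = 0.81).

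**Figure D2:**
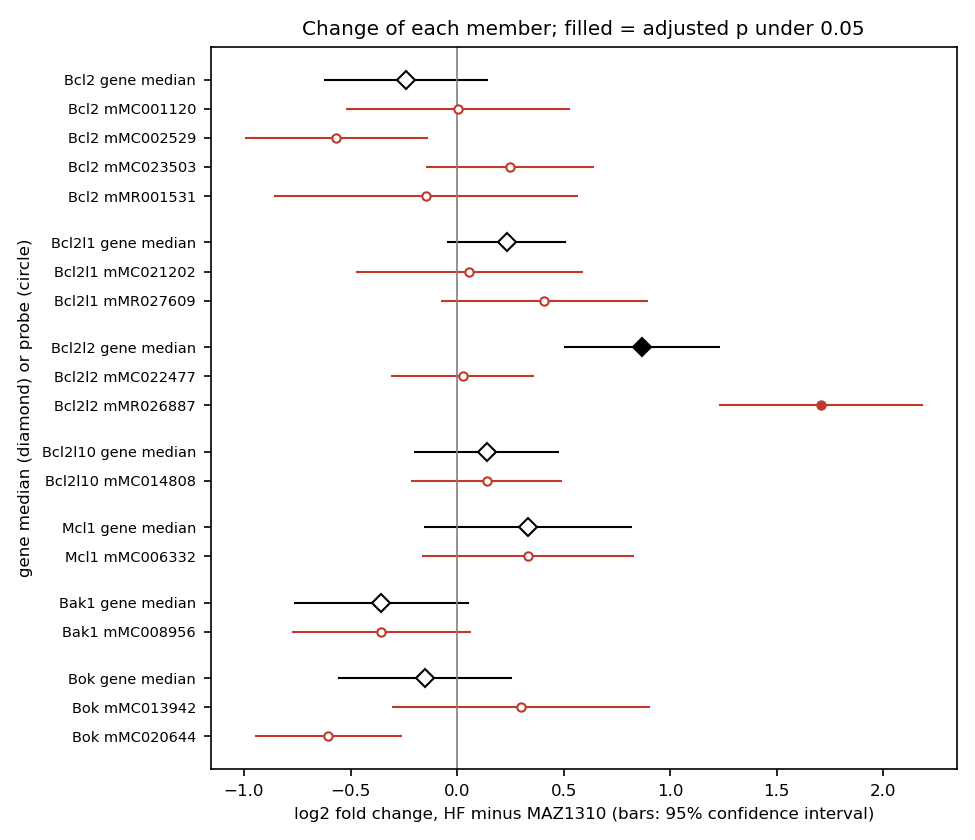
Log2 fold change of HF against MAZ1310 (horizontal axis) for each gene median (diamonds) and probe (circles), with 95% confidence intervals of limma that are not adjusted for the number of tests, and filled symbols for an adjusted p under 0.05. Only Bcl2l2 is filled, at 0.87 for the gene and 1.71 for probe mMR026887, and the probes of Bcl2 and Bok lie on both sides of 0.

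Changes of an effector were set against those of a survival protein known to bind it or to work beside it in 3 pairs (the pairs with Bax could not be measured). The values per culture below are differences of log2 intensity between probes of different genes, so only their shift between treatments has a meaning. For Bak1 minus Mcl1 the difference of log2 fold changes was -0.69 (standard error 0.23), with -1.42 to -1.04 in HF cultures and -0.94 to -0.28 in MAZ1310 cultures. The change of Bak1 minus that of Bcl2l1 was -0.59 (standard error 0.15), with 3.38 to 3.86 in HF and 4.16 to 4.35 in MAZ1310, and it rests on Bcl2l1 probes in the range of the dim reference. In both pairs the groups were apart, with p = 0.1 in the two-sided exact permutation test, the smallest possible here, and 0.15 adjusted over the 3 pairs. For Bak1 minus Bcl2l1 this outcome was fixed by the results above, in which Bak1 was lower and Bcl2l1 higher without overlap. It is therefore no separate result. For Bok minus Mcl1 the value was -0.48 (standard error 0.40, exact permutation p = 0.3), and the groups overlapped. It was -0.94 with the brightest Bok probe (exact permutation p = 0.1) and -0.16 without HF replicate 1.

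Of the BH3-only genes, which activate the effectors or occupy the survival proteins, all 8 were measured, 1 rose, 1 fell and 6 did not pass. By the same test 1.45% of all genes rose and 1.57% fell. Pmaip1 (Noxa), which binds Mcl1, rose by 2.22 ± 0.20 (SE) on the log2 scale (limma adjusted p = 0.00545), a call that held in all 6 fits with a culture left out. Bmf fell by 1.28 ± 0.13 (SE) on the log2 scale (limma adjusted p = 0.00802), which no longer passed without HF replicate 2. Its 2 probes differed in size, with -2.16 for mMC007645 (limma adjusted p = 0.00718) and -0.40 for mMR027525 (limma adjusted p = 0.174), whose mean of 7.23 was in the range of the dim reference. In HF mMC007645 averaged 7.99, also in that range. The median log2 fold change was -0.072 for the BH3-only genes, 0.23 for the 5 survival genes and -0.25 for the 2 measured effectors, beside -0.002 over all 16675 genes. The survival median is the value of Bcl2l1, which did not pass and whose probes were in the range of the dim reference. Neither effector passed.

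Most other genes of the mitochondrial pathway did not pass the test. The same holds for most genes on the array, of which 3.02% passed in either direction. Of 7 measured of 11 genes related to Bcl2 by name or fold, 0 passed, and the one with the smallest p was Bcl2l12 with a log2 fold change of -0.41 (limma adjusted p = 0.176). Of 15 measured of 16 binding partners of the family and enzymes of Mcl1 turnover, Bag3 alone passed. Bag3, a co-chaperone of Hsp70 that also binds Bcl2, read 11.21, 11.48 and 11.74 in MAZ1310 and 9.73, 10.34 and 10.35 in HF. All HF cultures were below all MAZ1310 cultures. It fell by 1.34 ± 0.22 (SE) on the log2 scale (limma adjusted p = 0.0298), and of the fits with a culture left out only the one without MAZ1310 replicate 1 kept it past the threshold.

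Downstream of the mitochondria, 10 of 13 genes of the apoptosome and the caspases were measured, of which Casp6 fell and 9 did not pass. By the same test 1.57% of all genes fell. Casp6, an executioner caspase that cleaves lamins, read 10.64, 9.58 and 10.42 in MAZ1310 and 8.49, 8.53 and 8.63 in HF. MAZ1310 replicate 2 was the lowest of its group but still above every HF culture. All HF cultures were under 8.72, the 95th percentile of the olfactory receptor probes, so the HF level lay in the range of the dim reference. Casp6 fell by 1.66 ± 0.27 (SE) on the log2 scale (limma adjusted p = 0.0279). Leaving out a culture kept it past the threshold only for MAZ1310 replicates 1 and 2. The caspase inhibitors showed 0 of 5 genes past the test, beside 3.02% of all genes. Birc3 had the smallest p among them (log2 fold change 0.44, limma adjusted p = 0.507).

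In the death receptor pathway 0 of 8 genes passed, beside 3.02% of all genes, with a list median of -0.45. The largest difference in the list went the other way, that of Cflar, an inhibitor of caspase activation at death receptors, with a log2 fold change of 1.12 (limma adjusted p = 0.111) and no overlap between treatments. Cflar was named after its values were seen, and its 3 probes are not shown apart here. Its means of 8.49 in HF and 7.37 in MAZ1310 were both in the range of the dim reference. The receptor Fas had a log2 fold change of -0.58 (limma adjusted p = 0.0633), with 7.53, 7.51 and 7.66 in MAZ1310 and 6.92, 7.10 and 6.94 in HF. Its groups did not overlap, but both were under 8.72, the 95th percentile of the olfactory receptor probes.

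**Figure D3:**
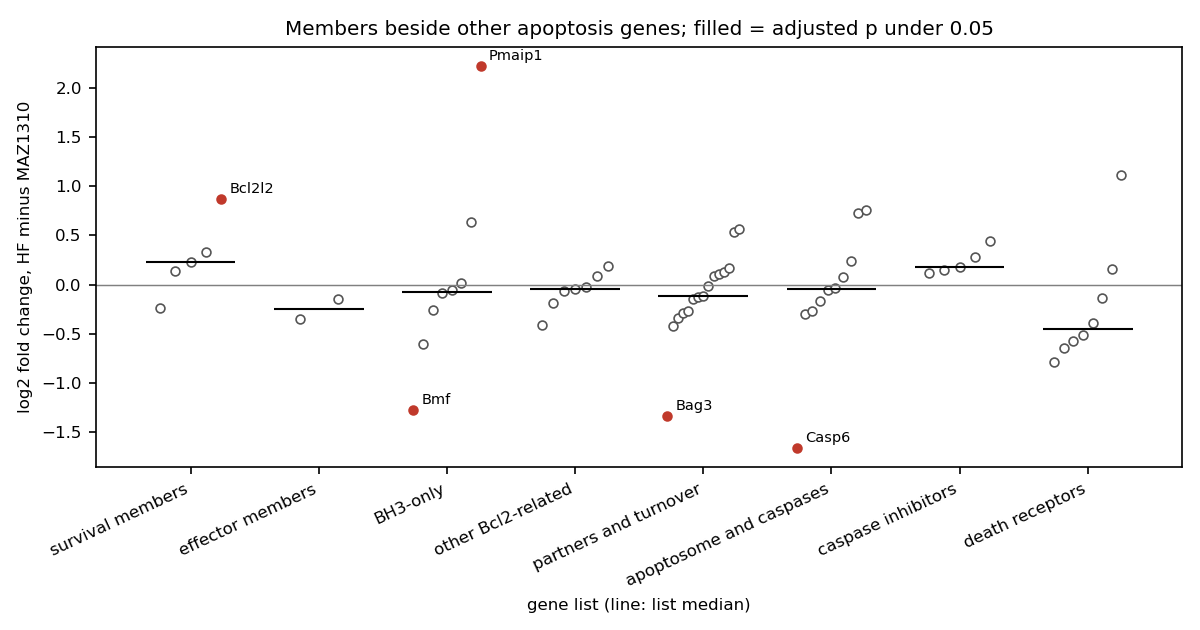
Log2 fold change of HF against MAZ1310 (vertical axis) for the measured genes of 8 apoptosis lists (horizontal axis), with 1 point per gene, lines for list medians and filled points for a limma adjusted p under 0.05. Filled points are Bcl2l2 at 0.87, Pmaip1 at 2.22, Bmf at -1.28, Bag3 at -1.34 and Casp6 at -1.66.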

How the data were processed

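The authors deposited intensities on a linear scale from 1-color Phalanx Mouse Whole Genome OneArrays. Per the paper's methods, the 18 arrays were quantile-normalized, after probes lacking a usable value on some array had been dropped, which left 21973 probes. How background was corrected is not given in the sources used here. Values ran from 36.4 to 65535.

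Probes were named from the platform annotation, in which 21020 carried a symbol and 953 none. Log2 intensities were tested per probe and, as the median over probes, per gene, after technical arrays were averaged per culture. Two-sided tests of HF against MAZ1310 came from limma 3.58.1 under R 4.3.3 (lmFit, then eBayes) with no term besides treatment, and p-values were Benjamini-Hochberg adjusted over all probes or all genes, with a threshold of 0.05. The few cultures limit precision, and log2 fold changes had a median standard error of 0.178. The code was tested on simulated cultures. Single differences were tested by exact permutation over cultures. Promoters were searched with Python 3.11.15.

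The members and gene lists were chosen with earlier results of these data known. Named genes were all members, the genes of each list that passed (at most 4, or the one with the smallest p), Mmp13 and the 5 genes most like the member with the smallest p. Symbols missing from the annotation were sought by synonym in the RefSeq table of GRCm38.p6. Alternatives covered array scaling, dim probes, the replicate number as a block, probe summary, the handling of technical arrays, eBayes options, Storey q-values and each culture left out.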

Additional observations from a re-analysis of the deposited data

How the results depend on the processing

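The gene-level call of Bcl2l2 ended with the median over technical arrays (adjusted p = 0.0632) and with an intensity trend and robust variance (0.0581), which left 0 member genes called, as did each left-out culture (0 to 0). It held in the other 8 alternatives with all cultures. Its probe mMR026887 was called in all 8 alternatives with all cultures, and 0 to 1 member probes were called with a culture left out. Each of those fits has fewer cultures, and thus less power. With the replicate number as a block, 2 member probes were called, because Bok mMC020644 passed (adjusted p = 0.047), as did Fas (0.0322). The numbers were not taken as pairs, since deviations of same-numbered cultures correlated by as little as 0.0792 in 1 pair (highest 0.69), under the limit of 0.1 set for every pair. As a hint the other way, 5 of 6 cultures correlated best with their own number. The block called 1792 genes and 2031 probes, against 504 and 491 without it. Other alternatives with all cultures called 322 to 1128 genes and 320 to 1275 probes. The highest counts came from fitting all 18 arrays with the culture as a random block. Left-out cultures gave 48 to 339 genes and 36 to 291 probes. The Bcl2 gene value changed sign without the dimmest 0.25 of probes (0.039) and with the brightest probe (0.25), because its probes differ. Over left-out cultures, sign changes were limited to Bcl2 mMC001120 (-0.17 to 0.15), Bcl2 mMR001531 (-0.41 to 0.011), Bcl2l1 mMC021202 (-0.11 to 0.27) and Bcl2l2 mMC022477 (-0.038 to 0.10). The difference between the Bcl2l2 probes was -1.81 to -1.53 and that of Bak1 minus Mcl1 -0.86 to -0.54 over these fits. Leaving out the dimmest probes removed Bcl2 mMC001120. Over left-out cultures Bok minus Mcl1 ran from -0.71 to -0.16. The planned pairs of Bax with Bcl2 and with Bcl2l1 were not run.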

Other observations

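The genes on either side of Bcl2l2 in the GRCm38.p6 annotation, looked up after its probes were seen to differ, did not pass the test. Pabpn1, which binds poly(A) tails and lies next downstream, was higher by 0.22 ± 0.19 (SE) on the log2 scale (limma adjusted p = 0.722), and Ppp1r3e, a regulatory subunit of a glycogen phosphatase, by 0.036 ± 0.29 (SE; limma adjusted p = 0.982). The next genes beside Bok, Stk25 and Thap4, had log2 fold changes of 0.18 and -0.18 (limma adjusted p = 0.67 and 0.68). Among the neighbors of all members the smallest p was that of Adamtsl4, next to Mcl1, with a log2 fold change of 0.84 (limma adjusted p = 0.0813). The positions of the probes are not given in the sources used here, so whether any probe reads a transcript shared with a neighbor was not tested.

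The 5 genes whose gene-level values ran most like those of Bcl2l2 over the 6 cultures were Itsn2 (Pearson r = 0.9986), Rhd (0.9974), Lef1 (0.9969), Tmem18 (0.9942) and Lrig2 (0.9916), picked as the highest of all genes. The cultures share 2 treatments, so this measure holds the difference between HF and MAZ1310 as well as the order within each. Of these genes Tmem18 (log2 fold change 0.95, limma adjusted p = 0.0331) and Lrig2 (1.21, limma adjusted p = 0.0217) passed the test. The call of Tmem18 ended whichever culture was left out, and that of Lrig2 held only without MAZ1310 replicate 1.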
